A study of Mus musculus with 2 samples.

Results

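The genes described here are 35 genes that mark the epithelium of the colon or build its cell junctions, read in RNA from colonic regulatory T cells (Treg cells). They were chosen by name, with earlier results of these data known. They are the rows of the deposited gene table that carry one of 35 listed symbols, and all 35 were found among its 55246 loci. The study profiled Treg cells of the colon lamina propria, the connective tissue beneath the gut lining, from female mice. There were 2 genotypes with 1 library each: WT, with an intact Foxp3 gene, and Exon2KO, in which Foxp3 lacks exon 2. The labels give neither the age and strain of the mice, nor the sorting scheme, nor whether RNA of several mice was pooled. Nor do they say whether the allele was on one or both X chromosomes of these females. With 1 library per genotype, no difference had a replicate check, and every interval below covers counting error in these libraries only.

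The colon is lined by a single layer of epithelial cells. Epcam and keratins of the simple-epithelium type mark all of them, E-cadherin and the claudins join neighbouring cells and set how leaky the layer is, and the caudal-type homeobox factors Cdx1 and Cdx2 keep the cells intestinal. Absorptive colonocytes, the commonest cell of the surface, add a brush border, lipid-binding and water-channel proteins, guanylin peptides and membrane mucins. The layer lies directly above the lamina propria from which the Treg cells were taken, and Treg cells themselves are not epithelial.

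The libraries held 16281133 reads assigned to genes in WT and 15412425 in Exon2KO. The T cell genes Cd3e (5154 reads in WT, 5262 in Exon2KO) and Foxp3 (6991 and 20946) were present in both. Foxp3 reads over the whole gene do not check a deletion of 1 exon. The share of the 10 T cell genes listed as a check was 0.666% in WT and 0.562% in Exon2KO.

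Sequence upstream of 3 of these genes is printed because the genes belong to one cell layer yet differed in behaviour: Epcam was the most abundant in WT and not higher in Exon2KO, Muc13 was higher, and Fabp2 had no WT read at all. Each is the 250 bases before the start site in RefSeq (GRCm38.p6), read 5′ to 3′ on the strand of the gene, and capitals mark TTTATG or its reverse complement CATAAA, a short form of the site that CDX factors recognise. The Epcam stretch is chr17:87635729-87635978, that of Muc13 chr16:33793787-33794036 and that of Fabp2 chr3:122894822-122895071, all on the plus strand.
Epcam: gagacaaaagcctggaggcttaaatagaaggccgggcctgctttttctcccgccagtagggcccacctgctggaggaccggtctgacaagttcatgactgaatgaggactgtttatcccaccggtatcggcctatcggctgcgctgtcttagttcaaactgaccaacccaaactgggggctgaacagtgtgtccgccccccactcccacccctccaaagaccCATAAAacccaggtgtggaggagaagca
Muc13: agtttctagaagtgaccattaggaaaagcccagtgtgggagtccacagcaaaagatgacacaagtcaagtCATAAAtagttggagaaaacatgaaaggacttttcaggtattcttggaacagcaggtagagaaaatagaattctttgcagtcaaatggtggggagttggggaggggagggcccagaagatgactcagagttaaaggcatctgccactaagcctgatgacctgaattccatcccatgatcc
Fabp2: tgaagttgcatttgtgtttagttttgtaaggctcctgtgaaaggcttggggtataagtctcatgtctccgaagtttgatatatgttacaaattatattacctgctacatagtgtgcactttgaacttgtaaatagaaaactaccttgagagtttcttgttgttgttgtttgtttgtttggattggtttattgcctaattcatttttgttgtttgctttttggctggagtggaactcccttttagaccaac
The match lies 28 bases before the start in Epcam and 180 bases before it in Muc13, on the minus strand in both, and Fabp2 has none in this window. An upstream sequence was read for 28 of the 35 genes, and Cdx1 was among those left out. Of the 28, 3 (10.7%), the third being Cldn2, held TTTATG on either strand, against 10.8% of 32851 mouse promoters. The 28 are 1 sequence per gene and the 32851 were not matched to them, so these shares are a rough comparison only. A TATA box (TATAAA, either strand) was found in Cldn2 and Krt20 (7.14% against 12.4%), and the ETS-type letters CCGGAAGT in Vil1 (3.57% against 2.88%). Neither CAAAGTCCA, an HNF4-type site, nor an HNF1-type site with 1 free base was found in any of the 28, and they occur in 0.384% and 0.0609% of all promoters. By these unmatched shares, TTTATG was about as frequent among the 28 sequences as among all promoters.

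Together the 35 genes held 1953 reads in WT and 9554 in Exon2KO. That is 0.0120% of the WT reads (95% Wilson interval 0.0115 to 0.0125) and 0.0620% of the Exon2KO reads (0.0608 to 0.0632). After scaling of the library sizes by TMM (a factor that corrects for the makeup of each library), the summed reads were 4.80-fold higher in Exon2KO (counting interval 4.57 to 5.04). Epcam alone took 40.0% of these reads in WT and 6.37% in Exon2KO, and without it the sum was 7.50-fold higher (7.05 to 7.98). In bulk RNA, more epithelial cells, more RNA per epithelial cell and expression by other cells in the Exon2KO sample cannot be told apart. The source of these reads was not tested.

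Reads were compared gene by gene with an exact binomial test, 2-sided, over the 17363 genes that had 10 or more reads in the libraries together. A call needed an adjusted p-value under 0.05 and a ratio of 2-fold or more. Such a test sets 2 libraries against each other, not 2 genotypes. Of the 35 genes, 25 were called higher in Exon2KO, 0 lower, 8 were not called and 2 (Cldn2 and Cldn4) had too few reads. Over the whole table, 7.20% of tested genes were called higher and 6.61% lower. The 35 genes were not chosen blind to these data, so setting them beside these shares is a description and not a test. By the fold alone, 0 of the 33 tested genes were 2-fold lower with a prior count of 2 added to each library, against 8.14% of tested genes. By that rule Krt7 was added to the genes higher in Exon2KO, against 9.38% of tested genes. Of the 33 tested genes, 7 had under 5 reads in WT and passed the read minimum through their Exon2KO reads. The counting interval of the ratio lay above 0 on the log2 scale for 27 genes, held 0 for 5 and lay below 0 for Epcam.

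**Figure D1:**
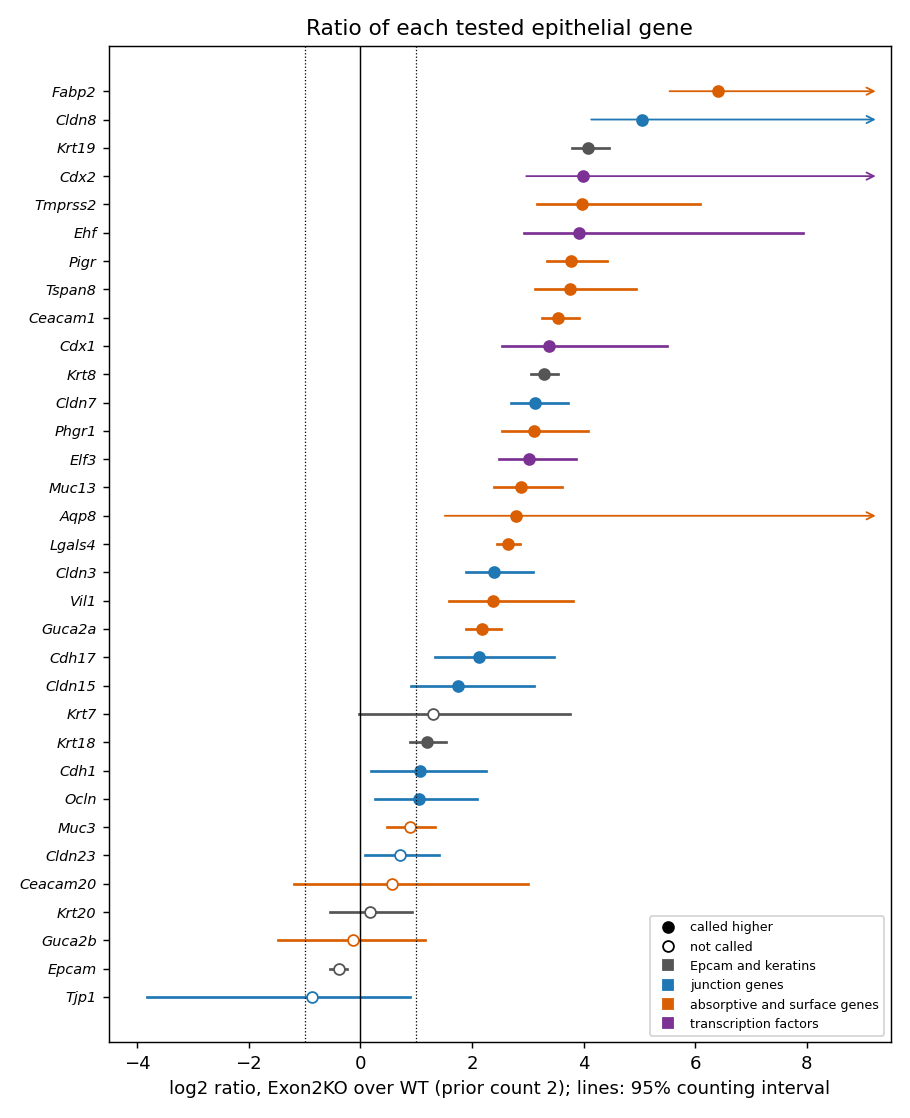
Log2 ratio of Exon2KO over WT reads for the 33 tested epithelial genes (horizontal axis, prior count 2), ordered by ratio and coloured by role. Lines are 95% counting intervals, arrows mark intervals with no upper limit because WT had 0 reads (there the point depends on the prior count), filled points are the 25 genes called higher, and dotted lines mark 2-fold. Fabp2 is at the top, and Epcam, Guca2b and Tjp1 are left of 0.

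Epcam and the keratins, genes that mark epithelial cells or stages of their maturation, split. Epcam (ENSMUSG00000045394, chromosome 17, 87635979 to 87651106, mm10, as are all positions given below) encodes an adhesion protein of the epithelial cell surface. It had 782 reads in WT and 609 in Exon2KO, or 24.3 and 18.8 FPKM (a level per length of gene and per library, as deposited by the authors). The log2 ratio was -0.39 (-0.54 to -0.23), short of 2-fold. Epcam was the first of the 35 genes by FPKM in the WT library and the sixth in the Exon2KO library.

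Krt8 (ENSMUSG00000049382, chromosome 15, 101996698 to 102004482), the type II keratin of simple epithelia, went the other way, from 160 to 1604 reads and from 5.18 to 51.5 FPKM. Its log2 ratio was 3.28 (3.06 to 3.54). Krt8 protein forms filaments only with a type I partner, and the partners here are Krt18, Krt19 and Krt20. Krt19 (ENSMUSG00000020911, chromosome 11, 100140810 to 100148665) rose from 81 to 1430 reads, at 2.77 and 48.5 FPKM (log2 ratio 4.08, 3.79 to 4.46). Krt18 (ENSMUSG00000023043, chromosome 15, 102028180 to 102032027), which lies close to Krt8, had 118 and 277 reads, at 5.21 and 12.1 FPKM, a log2 ratio of 1.19 (0.89 to 1.53). All 3 genes were called higher.

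The keratins thus differed in ratio among themselves beyond counting error, since the intervals of Krt8, Krt18 and Krt19 do not overlap. Per length, Krt8 was 0.995 times the level of Krt18 in WT and 4.25 times in Exon2KO. Summed over the type I genes Krt18, Krt19 and Krt20 the level was 9.0 FPKM in WT and 61.7 in Exon2KO, and over the type II genes Krt7 and Krt8 it was 5.22 and 51.6. The sum of type I over type II genes was 1.72 in WT and 1.20 in Exon2KO. Krt20, a keratin of the most mature surface cells, had 31 and 36 reads (log2 ratio 0.18, -0.54 to 0.93), an interval that holds 0 and ends below 2-fold. For Krt7, a keratin of ducts with little known use in the colon, there were 4 and 13 reads (1.3, -0.02 to 3.75), and it was not called.

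Absorptive and surface genes gave the most calls: 11 of 14 were called higher and 0 lower (background 7.20% and 6.61%). Their summed reads went from 592 to 4434, 7.35-fold higher (6.75 to 8.02). Fabp2 (ENSMUSG00000023057, chromosome 3, 122895072 to 122899506) encodes the intestinal fatty acid-binding protein. It had 0 reads in WT, which allows a share of up to 1.84e-05% of that library, and 169 reads in Exon2KO, or 11.01 FPKM, at least 55.3-fold higher when computed against 3 WT reads. Such a bound takes the Exon2KO reads as exact, and the 95% counting limit, which does not, was lower, at 5.48 on the log2 scale for Fabp2. Aqp8, a water channel of colonocytes, also had 0 reads in WT and 12 in Exon2KO, at least 3.93-fold higher by the bound, with a log2 counting limit of 1.45.

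Lgals4 (ENSMUSG00000053964, chromosome 7, 28833854 to 28841708), a galectin of the gut lining, was the second of the 35 genes by reads in WT. It had 217 reads there and 1385 in Exon2KO, at 5.94 and 37.6 FPKM, a log2 ratio of 2.64 (2.44 to 2.86). Ceacam1 (ENSMUSG00000074272, chromosome 7, 25461707 to 25477603) encodes an adhesion receptor that activated lymphocytes carry as well as epithelium. It had 84 and 1023 reads, at 0.917 and 11.1 FPKM, a log2 ratio of 3.55 (3.26 to 3.92). Its close paralog Ceacam2 had 0 and 6 reads, and the division of reads between them is uncertain. Pigr, the receptor that carries IgA across the epithelium, had 32 and 474 reads (3.78, 3.34 to 4.43). These 3 genes were well covered in the Exon2KO library, and the lower limit of each ratio was above 4-fold.

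A further 5 absorptive genes called higher had under 30 reads in WT. Tspan8, a tetraspanin, had 12 reads in WT and 191 in Exon2KO (3.76, 3.13 to 4.94). Tmprss2, a membrane serine protease, had 5 and 110 (3.98, 3.17 to 6.08). Phgr1, a small protein rich in proline, histidine and glycine, had 17 and 166 (3.12, 2.54 to 4.07). Muc13, a mucin anchored in the apical membrane, had 27 and 216 (2.88, 2.39 to 3.61). Vil1, which encodes the brush-border protein villin, had 9 and 56 (2.37, 1.58 to 3.81), and one of its exons overlaps Usp37 on the opposite strand, with 272 and 258 reads, so that Vil1 reads are uncertain.

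Guanylin and uroguanylin, the peptides that set fluid secretion through guanylate cyclase C, are encoded by the neighbouring genes Guca2a and Guca2b. Guca2a (ENSMUSG00000023247, chromosome 4, 119637704 to 119639471) rose from 103 to 481 reads (log2 ratio 2.18, 1.89 to 2.52). Guca2b (ENSMUSG00000032978, chromosome 4, 119656607 to 119658954) had 12 and 11 (-0.13, -1.47 to 1.156). The 2 intervals do not overlap. Per length, Guca2a was second of the 35 genes in both libraries, at 10.99 and 50.9 FPKM, and stood 12.6 times above Guca2b in WT and 64.0 times in Exon2KO.

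The remaining absorptive genes were not called. Muc3, a membrane mucin, had 70 and 133 reads (0.88, 0.47 to 1.34), so that the ratio was short of 2-fold while its interval lay above 0 and held 2-fold. Its reads are uncertain because of the related gene Muc3a (71 and 77 reads). Ceacam20, a brush-border member of the Ceacam family, had 4 and 7 reads (0.57, -1.20 to 3.0), too few to show a difference.

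**Figure D2:**
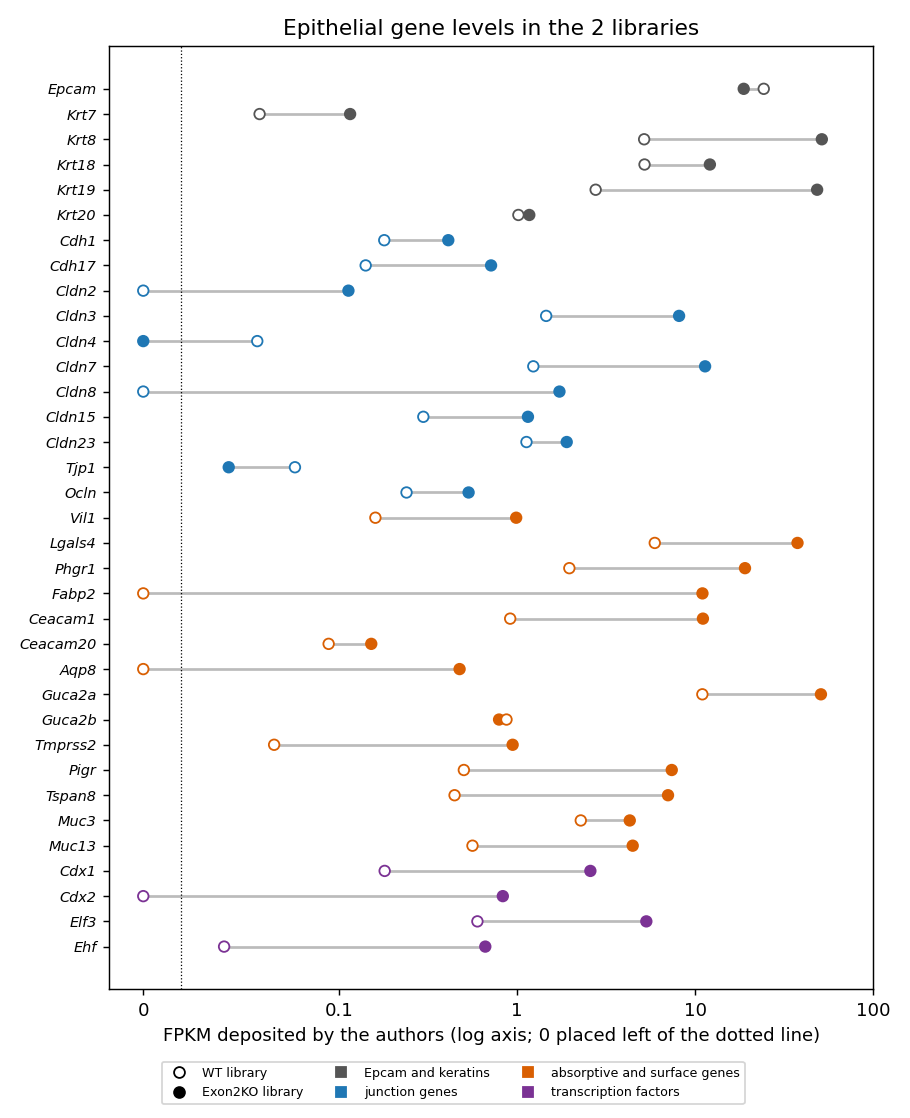
FPKM of each of the 35 genes in the WT library (open points) and the Exon2KO library (filled points) on a log axis, with 0 placed left of the dotted line and colours for the role. In 31 genes the filled point is to the right; in Epcam, Cldn4, Tjp1 and Guca2b it is to the left.

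Junction genes were called higher in 7 of 11 cases and lower in 0 (background 7.20% and 6.61%), 2 were not called and 2 had too few reads. Their reads summed to 157 in WT and 802 in Exon2KO, 5.01-fold higher (4.22 to 5.99). Claudins, the membrane proteins that form the tight-junction strands, gave most of these reads: 111 and 682 over 7 genes, 6.03-fold higher (4.93 to 7.44). The other 4 junction genes summed to 46 and 120 reads, 2.56-fold higher (1.81 to 3.68), and the 2 intervals do not overlap.

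Cldn7 (ENSMUSG00000018569, chromosome 11, 69964779 to 69967885), a claudin of the lateral membrane as well as the tight junction, was the claudin with the most reads in both libraries. Its reads numbered 38 in WT and 353 in Exon2KO, at 1.24 and 11.4 FPKM (log2 ratio 3.12, 2.70 to 3.71). Cldn3, a sealing claudin, had 29 and 163 (2.39, 1.89 to 3.09). Cldn8 (ENSMUSG00000050520, chromosome 16, 88560828 to 88563183), a sealing claudin of the distal colon, had 0 and 65 reads, at least 21.3-fold higher by the bound, with a log2 counting limit of 4.07. Cldn15, a claudin that forms cation channels, had 10 and 39 (1.75, 0.91 to 3.10). These 4 claudins were called higher.

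Cldn23, by contrast, had 33 and 56 reads and was not called (0.70, 0.09 to 1.40; adjusted p = 0.0569 by the exact binomial test). Its level equalled that of Cldn7 closely in WT, where Cldn7 stood at 1.09 times Cldn23 per length, against 5.98 times in Exon2KO. Cldn2, a cation-channel claudin of crypts and inflamed epithelium, had 0 and 6 reads. Cldn4 had 1 read in WT and 0 in Exon2KO, so that no ratio is given.

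Cdh17 (ENSMUSG00000028217, chromosome 4, 11758147 to 11817895), the liver-intestine cadherin, counted 10 reads in WT against 51 in Exon2KO (2.12, 1.33 to 3.47) and was called higher. Cdh1, which encodes E-cadherin, had only 13 and 30 reads (1.07, 0.20 to 2.24; adjusted p = 0.0407 by the exact binomial test). Ocln, which encodes the tight-junction protein occludin, had 16 and 36 (1.05, 0.26 to 2.09; adjusted p = 0.0254 by the same exact test). Both were called near the thresholds: each loses its call with a prior count of 5 in place of 2, and Cdh1 also when genes with few reads are not filtered out. Tjp1, the scaffold ZO-1 that anchors claudins to actin, had 7 and 3 reads (-0.87, -3.83 to 0.88).

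All 4 transcription factor genes were called higher (background 7.20%), from low levels. Together they held 28 reads in WT and 349 in Exon2KO, 12.2-fold higher (8.32 to 18.7), and 0.804 and 9.41 FPKM. Elf3, an ETS factor of epithelial differentiation, had 21 and 188 reads (3.02, 2.48 to 3.86), and its close relative Ehf had 2 and 59, with a lower limit of 2.94 on the log2 scale. Cdx1 had 5 and 72 reads (3.38, 2.53 to 5.49). Cdx2 (ENSMUSG00000029646, chromosome 5, 147300805 to 147307270) had 0 and 30, at least 9.82-fold higher by the bound, with a log2 counting limit of 2.91. The log2 ratios of these 4 genes lay between 3.02 and 3.99, with the values of Ehf and Cdx2 resting on 2 and 0 WT reads.

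**Figure D3:**
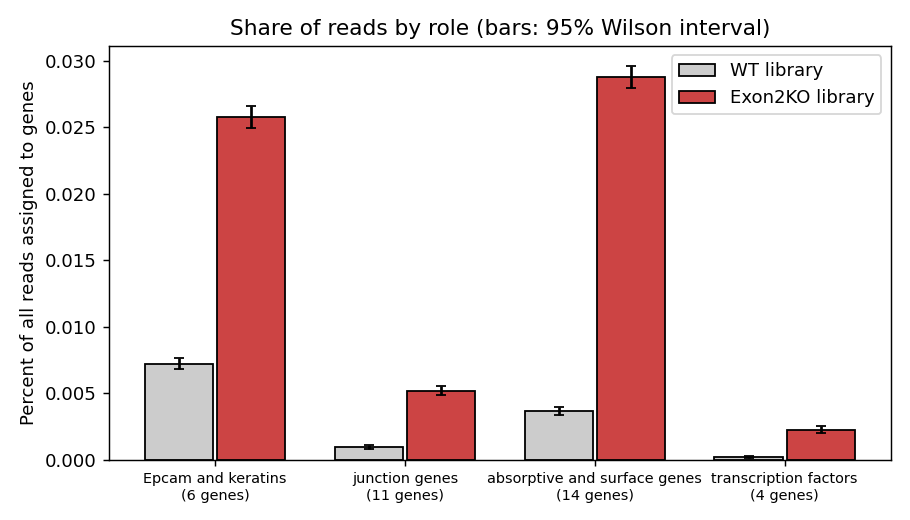
Share of all reads assigned to genes (percent, vertical axis from 0) held by the genes of each role in the WT library (grey) and the Exon2KO library (red), with 95% Wilson intervals. Every role takes a larger share in Exon2KO, and the absorptive and surface genes take the largest share there, 0.0288% against 0.00364% in WT.

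The ratios of the 35 genes were not of one size. The median log2 ratio of the 33 tested genes was 2.64, or 2.39 with genes at 0 WT reads set to their bound, against 0.0035 over all tested genes; these medians cover only genes that passed the read minimum. The intervals of 12 genes held 2.64, those of 10 lay below it and those of 11 above it. By role the median was 1.25 for Epcam and the keratins, 1.75 for junction genes, 2.84 for absorptive genes and 3.65 for the factors. With genes at 0 reads at their bound, the last 2 values were 2.76 and 3.34. Over all 35 genes the median level was 0.447 FPKM in WT and 1.90 in Exon2KO. The 5 genes with the most reads held 70.7% of the summed reads in WT (Epcam, Lgals4, Krt8, Krt18 and Guca2a) and 63.3% in Exon2KO (Krt8, Krt19, Lgals4, Ceacam1 and Epcam).

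Other genes of the epithelium were read from lists written for this comparison, outside the 35, again with earlier results of these data known. Among 32 genes of colonocyte transport and metabolism, 23 were tested, 11 were called higher and 0 lower (background 7.20% and 6.61%), with a median log2 ratio of 1.44. Car1, a carbonic anhydrase, had 24 reads in WT and 1830 in Exon2KO. Of 24 brush-border genes, 16 were tested, with 5 called higher (1 with a minimum of 50 reads) and 0 lower. Ush1c, a scaffold that links microvillus tips, had 0 and 44 reads, and Eps8l3 had 3 and 36. The median of this list was 0.46, and Ezr and Slc9a3r1, which T cells also express, held most of its reads (7686 and 5771 in WT, 5091 and 4329 in Exon2KO).

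Further genes of junctions and cell polarity, outside the 35, went both ways. Of 29 found in the table, 26 were tested, 3 were called higher (1 with a minimum of 50 reads) and 2 lower, near the background, and the median was 0.03. Dsp, which encodes the desmosome protein desmoplakin, had 7 and 66 reads, and the connexin gene Gjb1 had 0 and 23. The polarity gene Patj was lower, with 200 and 36 reads, and the tricellular junction gene Marveld2 had 104 and 51. Both lower genes had more WT reads than any of the 11 junction genes above, and Marveld2, at a log2 ratio of -1.03, loses its call when libraries are scaled by total counts. Of 30 other transcription factors of epithelium, 17 were tested, 6 were called higher and 2 lower, or 2 and 1 with a minimum of 50 reads. The calls without that minimum were 35.3% and 11.8% of the tested genes (background 7.20% and 6.61%), and the median log2 ratio was 0.10. Among those with at least 20 reads in 1 library, the highest were Nr1h4, the bile acid receptor FXR (2 and 41 reads), and Isx (2 and 21), while Foxa1 (52 and 9) and Ovol2 (23 and 6) were lower.

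Goblet cells are the mucus-secreting cells of the same layer. Of 16 goblet cell genes, 13 were tested, 1 was called higher and 4 lower (7.69% and 30.8%, background 7.20% and 6.61%), with a median of -0.34 and a summed share of 0.00660% in WT and 0.005995% in Exon2KO. Zg16 was higher (41 and 137 reads), while Ang4 (80 and 3) and Clca1 (105 and 7) were lower. Atoh1, the factor that specifies secretory cells, had 0 reads in both libraries. These are values of 2 libraries, and the difference between the goblet and absorptive lists was not tested.

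Markers of other cells of the lamina propria were read beside these results, against the same background (higher 7.20%, lower 6.61% of tested genes). The B and plasma cell list was present at 6.03% of the reads in WT and 5.54% in Exon2KO, with 1 of its 11 genes called higher and 2 lower, and its member Jchain had 120089 and 113723 reads. Myeloid and dendritic cell genes held 0.00855% and 0.00736%, with 0 of 8 tested genes called higher and 1 lower. That gene was Zbtb46, a dendritic cell factor, with 548 and 140 reads, while Lyz2 had 317 and 405, and Itgax was at 0 in both libraries. Stromal and endothelial genes held 0.00792% and 0.008175%, with 3 of 11 tested called higher and 1 lower, all of them lost with a minimum of 50 reads. In that list Col1a1 had 8 and 6 reads, Pecam1 917 and 834, and Cdh5 0 and 15. The part of any of these cells in the epithelial values was not tested.

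**Figure D4:**
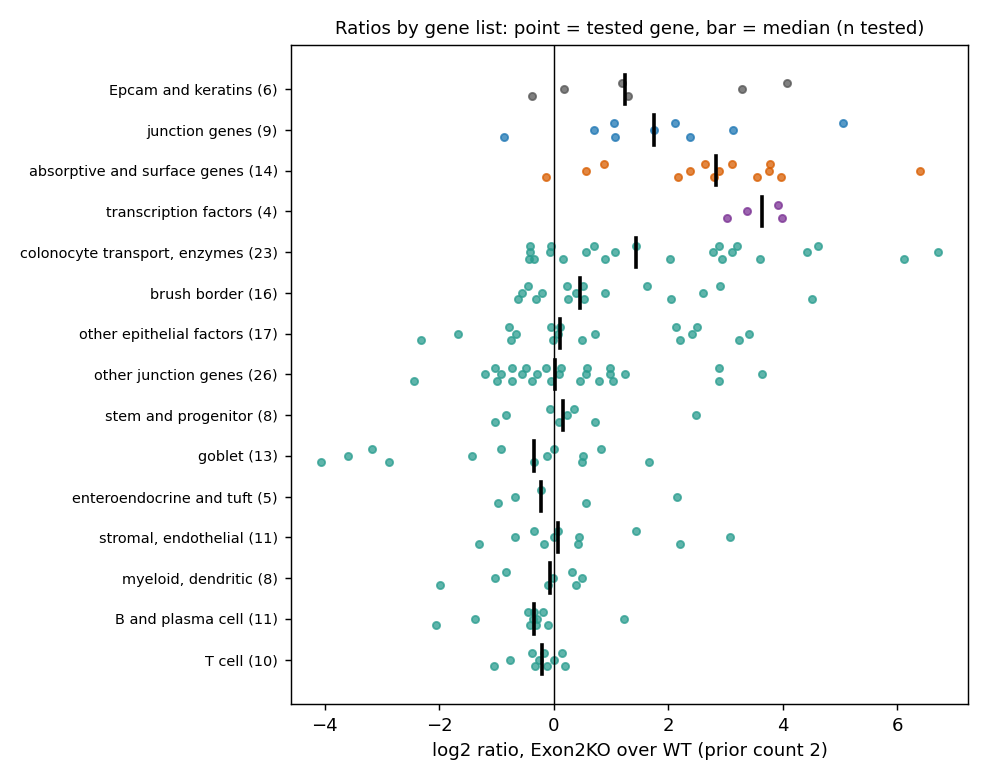
Log2 ratio of Exon2KO over WT (horizontal axis, prior count 2) for each tested gene of the 4 roles and of 11 other lists, with the number tested in brackets and the median as a black bar. The transcription factors sit between 3.02 and 3.99, while the goblet list has its median at -0.34 and 4 genes below -2.

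The authors' deposited table gives adjusted p-values for 34 of the 35 genes. By the authors' deposited table, 21 of them are below 0.05 and higher in Exon2KO and 0 are below 0.05 and lower, against 2.37% and 2.21% of all genes with a deposited value. The 4 genes called here that the authors' deposited table does not hold below 0.05 are Krt18 (0.109), Cdh1 (0.467), Cldn15 (0.0591) and Ocln (0.435). How much the samples of one genotype vary cannot be measured with 1 library each: if their relative spread (the biological coefficient of variation, BCV) is taken as 0.4, edgeR's exact test called 10 of the 35 genes higher and 0 lower, against 0.495% and 0.449% of tested genes. These were 2 keratins, 1 junction gene, 5 absorptive genes and 2 transcription factors: Krt8, Krt19, Cldn8, Fabp2, Ceacam1, Tmprss2, Pigr, Tspan8, Cdx2 and Ehf. Among them, Cldn8, Fabp2 and Cdx2 had 0 WT reads and Ehf had 2, and they passed the read minimum through their Exon2KO reads. With the BCV taken as 0.2, the same test called 22 higher and 0 lower, against 3.33% and 3.09%.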

How the data were processed

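Treg cell RNA from 1 WT and 1 Exon2KO sample was analysed from a single table. Per the submitters' processing notes the build was mm10 and the tools HISAT2 2.0.5, StringTie 1.3.3b, featureCounts 1.5.0-p3 and DESeq2 1.16.1; strand use is not given in the sources used here. The authors deposited raw counts per gene, FPKM values, a scaled count signal (not used here), log2 fold changes, and p-values with adjusted p-values. Of the 35 genes, 34 have the same coordinates in GENCODE M21, Epcam being the exception.

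Totals were scaled with TMM factors (0.964 for WT, 1.04 for Exon2KO) from edgeR 4.0.16 in R 4.3.3. Tests were 2-sided exact binomial tests (doubled smaller tail) with Benjamini-Hochberg adjustment, in Python 3.11.15 with scipy 1.17.1 and statsmodels 0.14.6. The code was also run on simulated counts that hold counting error only, so that run does not cover spread between samples. Log2 ratios carry a prior count of 2. Their 95% Clopper-Pearson intervals do not. Where 1 library had 0 reads, the bound uses 3 reads in that library. Reads carry no molecular identifiers and so do not each stand for 1 molecule; intervals and limits cover counting error only. The limit that a count of 0 allows is 1.84e-05% in WT and 1.95e-05% in Exon2KO.

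The 35 genes and all lists were chosen with earlier results of these data known. All 35 are named. From each of 7 other epithelial lists the rule names up to 2 called genes per direction with the most extreme ratio and at least 20 reads in 1 library, and Cd3e, Foxp3, Jchain, Lyz2, Zbtb46, Col1a1 and Pecam1. One gene that the rule takes is not reported here. Other genes (Ceacam2, Muc3a, Usp37, Ezr, Slc9a3r1, Itgax, Cdh5, Atoh1, Lgr5, Prom1, Olfm4, Pou2f3, Itgae and Tcrg-C1) were named after their values were seen. Alternatives in scaling, read minimum, fold, prior count, gene type and assumed BCV were tried.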

Additional observations from a re-analysis of the deposited data

How the results depend on the processing

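No paired analysis was possible because there is only 1 library of each genotype, so none could be left out either. The count of 25 genes called higher stayed between 21 and 26 under the alternatives in scaling, read minimum, fold threshold, prior count and gene type and with an assumed BCV of 0.2, and was 10 with an assumed BCV of 0.4. The count called lower was 0 in every one of these. No log2 ratio of the 33 tested genes changed sign under the scalings, filters and prior counts tried. Under the 4 other scalings all 33 kept their call or lack of one. With an assumed BCV of 0.4, 15 of the 33 genes lost their call, and with 0.2 Krt18, Cdh1 and Ocln did. Those 3 and Cldn15 also lost it at a fold threshold of 4. In the other lists an assumed BCV of 0.4 left 5 genes called higher of colonocyte transport and metabolism, 1 of the brush border, and 2 goblet, 2 intraepithelial lymphocyte and 1 Treg cell genes called lower; every other call in those lists was lost.

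Over the whole table, 1251 genes were called higher and 1148 lower. The counts were 649 and 685 with at least 50 reads and 499 and 408 at a fold threshold of 4. An assumed BCV of 0.2 gave 579 and 536, and 0.4 gave 86 and 78. A threshold of 1.5 gave 1847 lower, and protein-coding genes alone gave 791 higher, since fewer genes were tested. Scaling by total counts gave 1481 higher and 983 lower, and the median over tested genes was then 0.11 in place of 0.0035 (log2). As a share of protein-coding reads, which leave out immunoglobulin genes, the 35 genes held 0.0133% in WT and 0.0689% in Exon2KO, because the total is smaller. Too few reads left Cldn2 and Cldn4 untested, and Fabp2, Cldn8, Cdx2 and Aqp8, at 0 WT reads, with a bound only.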

Other observations

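Stem cells, enteroendocrine cells and tuft cells are rarer cells of the epithelium. Of 14 stem and progenitor genes, 8 were tested, 1 was called higher and 1 lower: Prom1 went from 1 to 15 reads, and Rnf43, a ligase that restrains Wnt signalling, from 104 to 51. Prom1 is not tested with a minimum of 50 reads, and Rnf43 loses its call when libraries are scaled by total counts. Lgr5, the marker of crypt stem cells, had 0 reads in WT and 4 in Exon2KO, and Olfm4 had 0 in both. Of 17 enteroendocrine and tuft cell genes, only 5 were tested. Tph1, the enzyme of serotonin synthesis in enterochromaffin cells, was called higher, with 12 and 61 reads, and Pou2f3, the factor that specifies tuft cells, had 0 reads in both libraries.

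Genes of lymphocytes that sit within the epithelium were mostly lower: of 9 tested, 1 was called higher and 4 lower. The ratio was below 0 on the log2 scale for 7 of them and above 0 for 2, with a median of -0.62. Itgae, whose integrin binds E-cadherin, had 1926 reads in WT and 312 in Exon2KO, and Tcrg-C1, a constant gene of the gamma chain of the T cell receptor, had 123 and 1034. Of the 8 Treg cell genes, 1 was called higher and 4 lower. For all these lists the background was 7.20% of tested genes called higher and 6.61% lower.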
